A study of Mus musculus with 6 samples.

Results

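The genes for the proteins of the cytosolic ribosome were followed in the cortex of newborn mice labelled as Tle4-/- null and of wild-type mice. They were taken from the deposited gene table by symbol. Rpl and Rps names with a number, then at most a single letter a, l, x or y and optional digits, were taken. The stalk genes Rplp0, Rplp1 and Rplp2 and Rpsa were taken too, and names that mark a pseudogene were left out. Longer names such as Rpl36al and Rps27rt fell outside the rule. The rule gave 83 of the 23621 rows of the table, of which 47 belong to the large subunit, 3 to its stalk and 33 to the small subunit. Total RNA was sequenced from 3 Tle4-/- null mutant cortices and 3 wild-type cortices, all at postnatal day 0 and all on a mixed background of C57BL/6J, 129S6 and CD1. The labels call the allele a null mutation, and how it was made is not given in them. The labels do not say which libraries share a litter or whether each came from 1 animal, so the p-values measure only the spread between these libraries, which may be technical. Xist, the RNA that coats the inactive X chromosome of females, averaged 3665 ± 398 CPM (counts scaled to library size with TMM factors) in the mutants and 1.42 ± 0.81 CPM in the wild types (SD, n = 3 each), so sex and genotype cannot be told apart. In whole cortex, fewer cells of a type and less RNA per cell cannot be told apart either.

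Each cytosolic ribosome is built from 1 copy of nearly every ribosomal protein, and the proteins are made in step with ribosomal RNA and assembled on it in the nucleolus. The small subunit reads the messenger RNA, the large subunit joins the amino acids, and the stalk of the large subunit recruits the translation factors. Newborn cortex is a growing tissue with a high demand for translation. Mammalian genomes carry very many processed copies of these genes, made when their messenger RNAs were reverse transcribed and inserted elsewhere. Such a copy holds the joined exons, so a read that lies within an exon can match the gene and the copy equally well.

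The libraries held 18617408 to 21632607 counts. Tle4 itself fell to 81.0 ± 10.1 CPM in the mutants, against 169 ± 27.8 CPM in the wild types (log2 fold change -1.06 with an SE of 0.14, adjusted p = 0.0377 in edgeR). Tle4 RNA was thus still counted in the mutants, at 1481, 1659 and 1664 counts, against 3884, 3171 and 3091 counts in the wild types. The summed level of 7 cortical marker genes lay between 2288 and 2867 CPM in all 6 libraries. The summed level of 5 markers of the meninges, the membranes around the brain, was 132, 266 and 156 CPM in mutants 1, 2 and 3, and 10.9, 327 and 120 CPM in wild types 1, 2 and 3, with none of the 5 at 0 in any library. The markers of the choroid plexus summed to 95.7 CPM in mutant 3 and to at most 1.53 CPM elsewhere. Striatal markers, 5 genes, summed to 51.6, 46.31 and 37.75 CPM in mutants 1, 2 and 3. In wild types 1, 2 and 3 they summed to 64.83, 57.45 and 85.13 CPM. In edgeR 0 of these 5 passed an adjusted p of 0.05 and 3 had an unadjusted p under 0.05, while the DESeq2 Wald test called 2 lower. Whether the dissections differed in striatal tissue was not tested.

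The coding sequences below belong to genes with unsteady values (Rpl15, Rpl26, Rps3a1 and Rpl29) or with a low row beside a high row of a copy (Rpl23a and Rps27), each shown beside a near-identical copy elsewhere in the genome. Capitals mark the bases that differ between a gene and its copy, positions count from 1 at the A of the start codon, and a substitution gives the base of the gene first. They are GENCODE M21 transcripts on GRCm38, read 5′ to 3′ on the strand of each gene. The window of Rpl23a lies on chr11:78182867-78182926 (minus strand) and that of Rpl23a-ps3 on chr14:34170740-34170799 (plus strand), with the substitution A116T as the only difference over the 468 coding bases.
Rpl23a: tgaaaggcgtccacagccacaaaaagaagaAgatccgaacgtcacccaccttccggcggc
Rpl23a-ps3: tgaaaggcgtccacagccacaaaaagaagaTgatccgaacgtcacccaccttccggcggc
Rpl15 lies on chr14:18270008-18270302 (minus strand, across an intron) and its copy Gm10020 on chr15:52478021-52478080 (minus strand), with A156G and C202A as the only differences over 612 coding bases.
Rpl15: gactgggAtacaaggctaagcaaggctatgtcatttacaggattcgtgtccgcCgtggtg
Gm10020: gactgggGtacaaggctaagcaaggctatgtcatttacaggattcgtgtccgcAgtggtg
Rpl26 lies on chr11:68902421-68903216 (plus strand, across an intron) and its closest copy Gm15772 on chr5:3236577-3236636 (plus strand), with C177T in the window and 2 differences over 435 coding bases.
Rpl26: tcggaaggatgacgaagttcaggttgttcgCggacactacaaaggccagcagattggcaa
Gm15772: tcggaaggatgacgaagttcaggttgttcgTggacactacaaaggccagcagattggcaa
Rps3a1 lies on chr3:86138099-86138530 (minus strand, across an intron) and its closest copy Rps3a2 on chr14:88123124-88123183 (minus strand), with A645T and T668C in the window and 4 differences over 792 coding bases.
Rps3a1: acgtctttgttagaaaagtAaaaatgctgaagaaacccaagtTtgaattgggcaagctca
Rps3a2: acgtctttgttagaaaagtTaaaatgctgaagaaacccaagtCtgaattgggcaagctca
Rpl29 lies on chr9:106431376-106431435 (plus strand) and the copy of it with most counts in the table, Gm10709, on chr9:7752134-7752193 (plus strand), with T423C and G457A in the window and 4 differences over 480 coding bases.
Rpl29: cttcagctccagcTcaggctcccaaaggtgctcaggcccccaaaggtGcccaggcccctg
Gm10709: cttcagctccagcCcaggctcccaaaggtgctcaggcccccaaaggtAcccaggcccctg
The whole coding sequence of Rps27, 252 bases, is identical in Rps27rt, and the first 60 bases of both are shown once, with the start codon in capitals (Rps27 on chr3:90213248-90213615, minus strand, across an intron, and Rps27rt on chr9:114982648-114982707, minus strand).
Rps27 and Rps27rt: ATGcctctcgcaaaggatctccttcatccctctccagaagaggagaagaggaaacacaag

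Most ribosomal protein genes varied little between the 6 libraries, and none passed the test of genotype. Of the 83 genes, 80 had enough counts to be tested, and 67 of these were steady, with the highest library under 2 times the lowest. Another 10 were variable, with a ratio of 2 or more, and 3 switched between libraries, with the highest library at 5 CPM or more and at least 30 times the lowest. The 3 that switched were Rpl26, Rpl29 and Rps3a1. Rpl3l, Rpl39l and Rps29 stayed under 1 CPM and were not tested.

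No ribosomal protein gene passed an adjusted p of 0.05 in edgeR's quasi-likelihood test (0 of 80), where 18 of all 16274 genes tested did, a share of 0.111%, with 0.0492% higher and 0.0614% lower in the mutants. At an unadjusted p under 0.05 there were 4 of 80, or 5%, against 3.45% of all genes. The 4 were Rpl15, Rps15a, Rps24 and Rpl26, all of them higher in the mutants. limma-voom also called 0 of 80, and the DESeq2 Wald test called 2, Rpl15 and Rpl26, both higher. The authors' deposited table lists 3 of the 83 at an adjusted p under 0.05, against 0.288% of its rows. These were Rpl26 (1.1e-06), Rpl15 (2.7e-06) and Rpl29 (0.019).

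The median log2 fold change over the 80 genes tested was -0.016, mutant over wild type, beside -0.0055 over all genes. It was -0.026 for the large subunit without its stalk, 0.059 for the stalk and -0.0082 for the small subunit. Over the 67 steady genes the median was -0.020, with 23 above 0 and 44 below 0. These genes share the same libraries, so their signs are not independent, and the sign of the median depended on single libraries. In the steady class single genes ran between -0.32 and 0.47, and in 4 of them the log2 fold change was more than 0.2 in size. The genotypes did not overlap in 7 of 80 genes, or 8.75%, against 7.93% of all genes. Rps24, Rps15a, Rps6, Rpl15, Rpl26 and Rps3a1 lay wholly above the wild types (6 of 80, against 4.18% of all genes), and Rpl36 lay wholly below (1 of 80, against 3.75% of all genes).

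**Figure D1:**
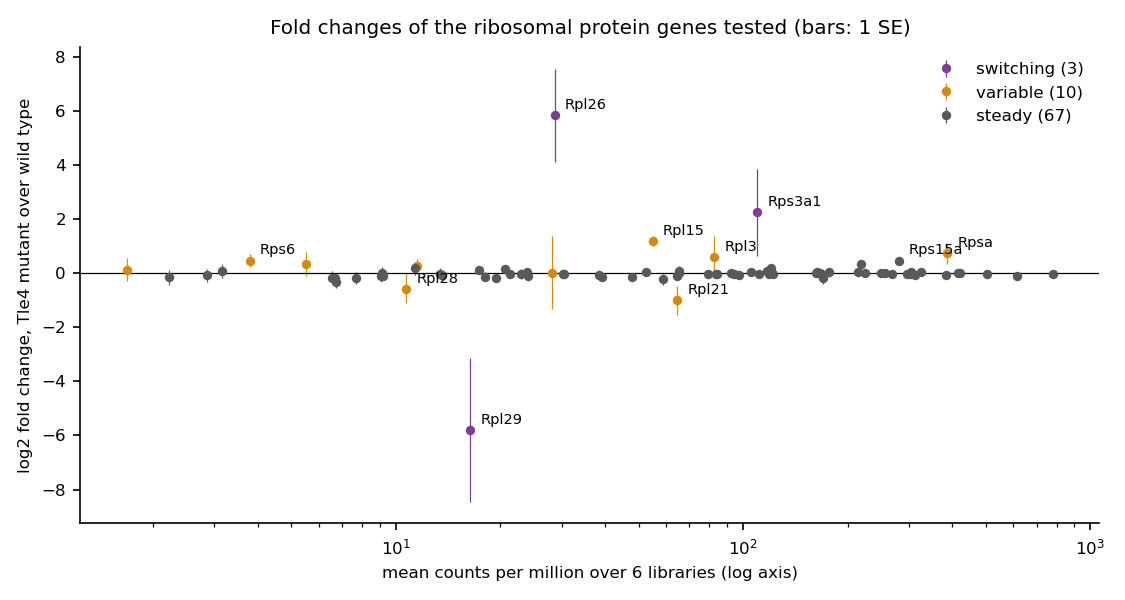
Log2 fold change (Tle4 mutant over wild type, vertical axis) against mean CPM over the 6 libraries (log axis) for the 80 ribosomal protein genes tested, coloured by class; bars are 1 standard error. The 67 steady genes lie between -0.32 and 0.47, while Rpl26 at 5.85, Rps3a1 at 2.25 and Rpl29 at -5.79 stand apart with wide errors.

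The 6 libraries differed a little among themselves in the level of the steady genes. Wild type 1 was the highest library for 39 of the 67 and the lowest for none. Wild type 2 was the lowest for 23, and mutant 1 for 16. The median deviation from each gene's own mean was -0.055, 0.066 and 0.0043 on the log2 scale in mutants 1, 2 and 3, and 0.13, -0.073 and -0.031 in wild types 1, 2 and 3. Wild type 1 was also the library with 10.9 CPM of meningeal markers, and the part of that in the result was not tested. Without wild type 1 the median log2 fold change of the steady genes was 0.041, and without mutant 1 it was 0.011, so that its sign depended on single libraries.

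**Figure D2:**
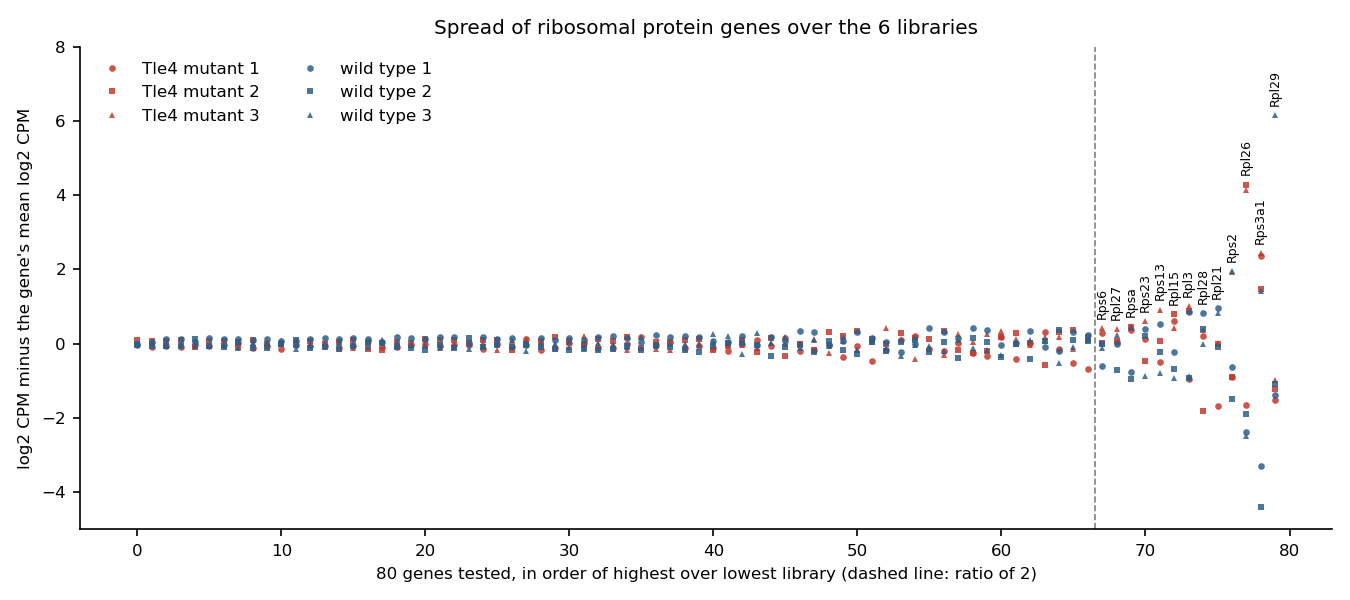
Log2 CPM of each library minus the gene's own mean log2 CPM, for the 80 genes tested in order of the ratio of the highest to the lowest library; red symbols are the 3 Tle4 mutants and blue symbols the 3 wild types. To the left of the dashed line the 67 steady genes keep all 6 libraries close together, and to its right 13 genes spread out.

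Levels per length were read from the deposited FPKM values. Among the 5 highest steady genes were Rplp1, Rpl4, Rpl8 and Rps26. Rplp1, a stalk protein, had 685, 643 and 678 FPKM in mutants 1, 2 and 3, and 633, 720 and 591 FPKM in wild types 1, 2 and 3. The genotypes overlapped, and wild type 2 held the highest value. Rpl4, a large-subunit protein that lines the exit tunnel, averaged 538 ± 42.5 FPKM in the mutants and 558 ± 34.3 FPKM in the wild types (SD, n = 3 each). Rpl8, at the core of the large subunit, averaged 487 ± 22.4 FPKM in the mutants and 491 ± 30.6 FPKM in the wild types. Rps26, at the messenger RNA exit of the small subunit, averaged 360 ± 7.25 FPKM in the mutants and 363 ± 27.2 FPKM in the wild types. These 4 genes differed by less than the spread between libraries.

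The lower end was set by 3 genes. Rpl3l, the muscle form of Rpl3, was listed at 0, 1 and 1 counts in mutants 1, 2 and 3, and at 0, 3 and 1 in wild types 1, 2 and 3. Rpl39l, a form of Rpl39 known from testis, had 0, 1 and 1 counts in the mutants and 0, 4 and 2 in the wild types. These values sit at or near the limit of 3 counts that a count of 0 allows. Rps29 had 9, 4 and 19 counts in the mutants and 8, 6 and 6 in the wild types, low for a protein of every small subunit, and 6 copies of its coding sequence are annotated elsewhere. In all, 7 of the 83 genes were under 1 FPKM and 20 were at 100 FPKM or more. This order depends on the gene length behind the deposited FPKM values. In 63 of the 80 genes the length implied by counts and FPKM exceeded the longest annotated transcript, and it reached 11869 bases for Rps15a.

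**Figure D3:**
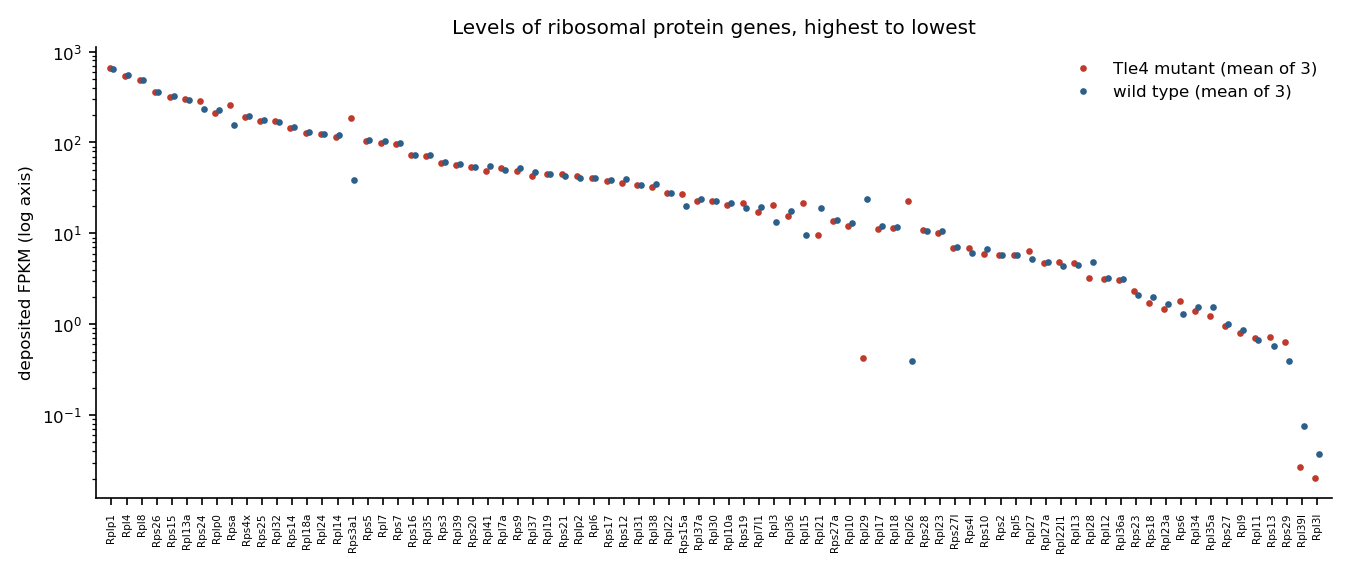
Mean deposited FPKM of ribosomal protein genes in 3 Tle4 mutant libraries (red) and 3 wild-type libraries (blue) on a log axis, from the highest to the lowest. The genotype means lie close together from Rplp1 to Rpl11, apart from Rps3a1, Rpl26, Rpl29 and a few variable genes.

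Rpl26, a large-subunit protein known for binding the p53 messenger RNA, had 31, 1688 and 1521 counts in mutants 1, 2 and 3, and 17, 27 and 15 counts in wild types 1, 2 and 3. Mutants 2 and 3 were high, while mutant 1 lay within a few counts of the wild types, and the genotypes did not overlap. The mean was 56.4 ± 47.8 CPM in the mutants and 0.961 ± 0.219 CPM in the wild types (SD, n = 3 each), and the log2 fold change was 5.85 (SE 1.72, unadjusted p = 0.0229, edgeR adjusted p = 1). Without mutant 1 the log2 fold change was 6.43, with an edgeR adjusted p of 1.41e-06, and with each of the other 5 libraries left out the adjusted p was 0.954 to 1. There are 6 annotated copies of its coding sequence, of which 0 matched a row analysed here.

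Rpl29, a small basic protein of the large subunit, had 10, 11 and 13 counts in the mutants and 10, 14 and 1769 counts in wild types 1, 2 and 3. Only wild type 3 was high among the 6 libraries, and the genotypes overlapped. The log2 fold change was -5.79 (SE 2.66, unadjusted p = 0.0893, edgeR adjusted p = 1), and without wild type 3 it was 0.0048. Its copy Gm10709 had 5, 2 and 6 counts in the mutants and 3, 3 and 27 in the wild types. The copy was thus highest in the same library as Rpl29 itself.

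Rps3a1, a small-subunit protein that contacts initiation factors, had 4500, 2153 and 4250 counts in mutants 1, 2 and 3, and 82, 43 and 2023 counts in wild types 1, 2 and 3. Wild types 1 and 2 were low, and wild type 3 lay just under mutant 2 at 109 against 113 CPM. The mean was 182 ± 60.0 CPM in the mutants and 38.3 ± 61.0 CPM in the wild types (SD, n = 3 each). The log2 fold change was 2.25 (SE 1.62, unadjusted p = 0.231, edgeR adjusted p = 1). Switching rows made up 3 of the 80 genes, or 3.75%, against 0.35% of all genes tested. Rpl26 and Rpl29 were known to switch when these genes were chosen, so the excess cannot be read as a finding. Rows that never reached 5 CPM are part of both shares. No library pattern was common to the 3 genes. Rpl26 was high in mutants 2 and 3, Rpl29 in wild type 3, and Rps3a1 in these 3 libraries and mutant 1. A ratio of 2 or more was found in 13 of 80, or 16.2%, against 24.7% of all genes.

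**Figure D4:**
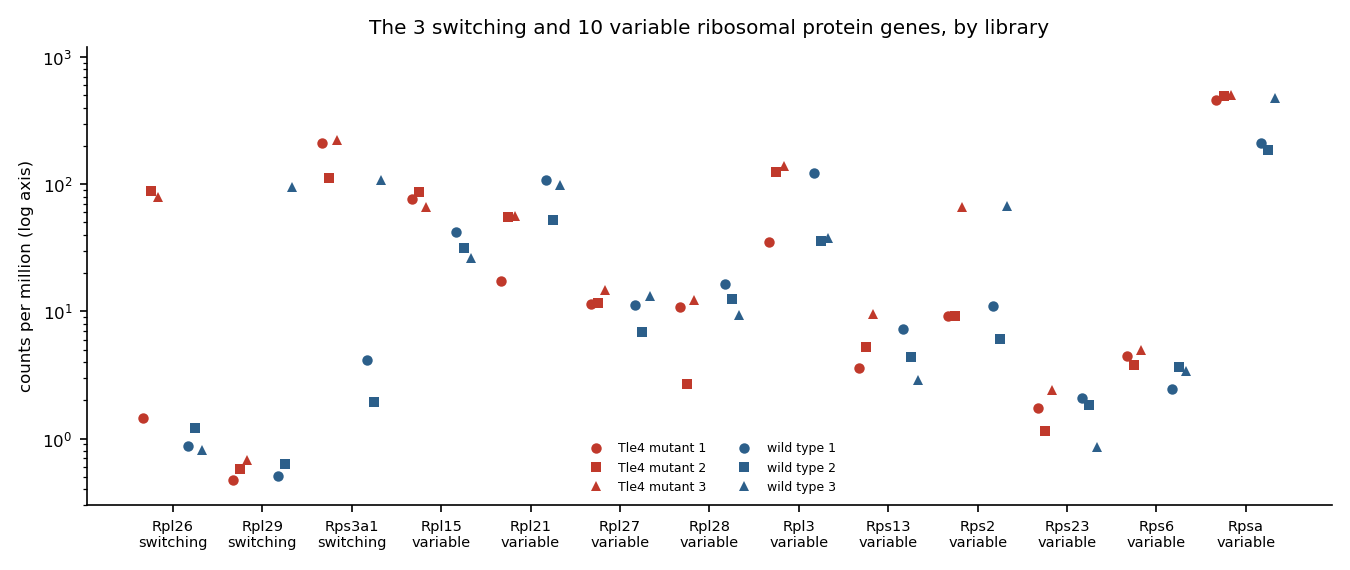
CPM on a log axis for the 3 switching and 10 variable ribosomal protein genes, with the 3 Tle4 mutants (red) left of the 3 wild types (blue) for each gene. Rpl26 is high in mutants 2 and 3, Rpl29 in wild type 3 alone, and Rps3a1 is low in wild types 1 and 2.

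The 10 variable genes did not share 1 pattern over the libraries. Rpl15, a large-subunit protein, had 1623, 1659 and 1277 counts in the mutants and 832, 696 and 489 counts in the wild types. All 3 mutants lay above all 3 wild types. The mean was 76.4 ± 10.1 CPM in the mutants and 33.3 ± 8.24 CPM in the wild types (log2 fold change 1.20, SE 0.18, edgeR adjusted p = 0.0691), and without wild type 1 the log2 fold change was 1.41 with an adjusted p of 0.0181. With each of the other 5 libraries left out the edgeR adjusted p was 0.135 to 0.229. Its copy Gm10020 ran otherwise, at 815, 773 and 665 counts in the mutants and 1715, 5 and 1338 counts in the wild types. Rpl15 and Gm10020 together had 2438, 2432 and 1942 counts in the mutants and 2547, 701 and 1827 in the wild types. These sums overlapped (log2 fold change 0.40, SE 0.51, edgeR adjusted p = 1). Rpl15 has 12 annotated copies, and only Gm10020 has a row in the table. Gm4294, identical to Rpl15 over the coding sequence, has none, so the sums do not cover the whole family.

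Rps2, a small-subunit protein at the messenger RNA entry, had 198, 177 and 1267 counts in the mutants and 217, 136 and 1245 counts in the wild types. Library 3 of each genotype was high and the other 4 were low. Its copy Rps2-ps10 showed the mirror image, with 3122, 2923 and 81 counts in the mutants and 3075, 3233 and 72 in the wild types. Of its 18 annotated copies, 4 have rows in the table. Rps2 took 5.94, 5.68 and 92.8% of the summed counts of the gene and these 4 copies in the mutants. In the wild types it took 6.56, 4.02 and 93.7%. With the 4 copies added, the ratio of highest to lowest library was 2.37, against 10.96 for Rps2 alone. Other unsteady genes with copies in the table varied in this. The ratio went from 2.16 to 1.18 for Rpl27, from 2.79 to 2.74 for Rps23 and from 203 to 146 for Rpl29. For Rpl15 it rose from 3.30 to 4.12. The log2 fold change of Rps2 alone was 0.012 (SE 1.35, edgeR adjusted p = 1).

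Rpsa, the laminin receptor protein of the small subunit, had 9809, 9383 and 9578 counts in the mutants and 4129, 4136 and 8834 counts in the wild types. Wild type 3 lay within the range of the mutants, at 475 CPM, and wild types 1 and 2 were low. The log2 fold change was 0.74 (SE 0.38, edgeR adjusted p = 1), and without wild type 3 it was 1.29, with an adjusted p of 0.00337, against 0.954 to 1 with each of the other 5 libraries left out. Rpl3, which lies at the peptide-joining centre, had 752, 2386 and 2651 counts in the mutants and 2423, 798 and 699 in the wild types. Its 2 levels thus cut across the genotypes (log2 fold change 0.60, SE 0.77, edgeR adjusted p = 1). Of the annotated copies of Rpsa, Rpl3 and Rps3a1, 0 matched a row analysed here.

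Rpl21, with 56 annotated copies the most copied of the 83 genes, had 369, 1061 and 1081 counts in the mutants and 2120, 1161 and 1839 in the wild types. Mutants 2 and 3 lay beside wild type 2, with mutant 1 below and wild types 1 and 3 above (log2 fold change -1.004, SE 0.54, edgeR adjusted p = 1). Rpl28 had 232, 51 and 234 counts in the mutants and 325, 277 and 174 in the wild types, so mutant 2 alone was low (log2 fold change -0.57, SE 0.53, edgeR adjusted p = 1). Rps13, Rps23, Rps6 and Rpl27 made up the rest of the class, with log2 fold changes of 0.34, 0.14, 0.47 and 0.29 and an edgeR adjusted p of 1 for each. Just inside the steady class stood Rpl41, at a ratio of 1.86, and just outside it Rps6 and Rpl27, at 2.03 and 2.16.

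A copy of the coding sequence was searched for in 82 of the 83 genes, with at least 95% identity over at least 80% of its length, in the gene's own orientation and filling at least 50% of the copy's longest transcript. The search found 548 annotated copies, and 40 of these had rows of their own in the table, spread over 30 ribosomal protein genes. The 13 variable or switching genes all had at least 1 annotated copy, with a median of 10. Of the 67 steady genes 58 had at least 1, with a median of 4. Copies with rows in the table were found for 5 of the 13 and for 25 of the 67, so these shares were alike. The 83 genes share libraries and are not independent. Across them the number of copies had a Spearman rho of 0.34 with the ratio of highest to lowest library. With the mean FPKM it was -0.25. Rps4l, a steady gene without a coding sequence to search, was entered in these numbers with 0 copies. Rpl3l and Rpl39l entered with ratios that rest on a lowest value set at 3 counts.

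Several ribosomal protein rows were low and steady while the row of a copy was high and steady. Rpl23a had 42, 37 and 46 counts in the mutants and 54, 42 and 44 in the wild types. Rpl23a-ps3, which differs from it by the single A116T shown above, had 3300, 3249 and 2883 counts in the mutants and 3577, 3303 and 2715 in the wild types. Rpl23a therefore held 1.38% of the summed counts of this pair on average. Of its 19 annotated copies only Rpl23a-ps3 has a row in the table, so the sum does not cover the whole family. Rps27, identical in sequence to Rps27rt, had 60, 51 and 55 counts in the mutants and 58, 69 and 51 in the wild types. Rps27rt had 3162, 3747 and 2736 counts in the mutants and 3524, 3157 and 2601 in the wild types, so that Rps27 held 1.81% of the sum. The low level of either gene is uncertain for this reason, and so is that of its copy.

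The same held for Rpl5 and Rpl11, which together with 5S ribosomal RNA bind the p53 regulator Mdm2. Rpl5 had 658, 608 and 549 counts in the mutants and 668, 601 and 580 in the wild types. Gm15500 on chromosome 7, identical to Rpl5 over its 891 coding bases, had 7504, 6966 and 7063 counts in the mutants and 7784, 7520 and 6928 in the wild types. Rpl11 had 68, 53 and 72 counts in the mutants and 68, 53 and 62 in the wild types, while Gm10036, with 4 differences over 534 bases, had 1566, 1572 and 1648 in the mutants and 1721, 1636 and 1587 in the wild types. Rpl12, a protein at the base of the stalk, held 9.70% of the counts it shared with the identical copy Gm10275, and Rpl9 held 9.13% beside Rpl9-ps6.

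In all, the copies held more counts than the gene in 10 of the 30 families, and at least 10 times as many in 5. In 5 others, Rps4x, Rpl7a, Rpl13, Rps24 and Rpl13a, the gene held at least 99% of the counts. Added to their copies, the families tested gave no call either, with 0 of 80 genes past the threshold. How reads that match several places were assigned is not given in the sources used here, so the split between a gene and its copies is uncertain in each family.

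Some coding sequences lie inside longer genes on the other strand, and whether counting used the strand is not given in the sources used here. Gm5148 holds 398 bases of Rps23 without a difference, in the opposite orientation. Its row had 43, 2630 and 4545 counts in the mutants and 5008, 4975 and 4178 in the wild types, so that mutant 1 alone was low. Rps23, a small-subunit protein of the decoding centre, had 37, 22 and 46 counts in the mutants and 41, 41 and 16 in the wild types. Gm26619 holds Rps18 in the opposite orientation with 4 differing bases over 456, and averaged 2707 counts over the 6 libraries, where Rps18 averaged 153.

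**Figure D5:**
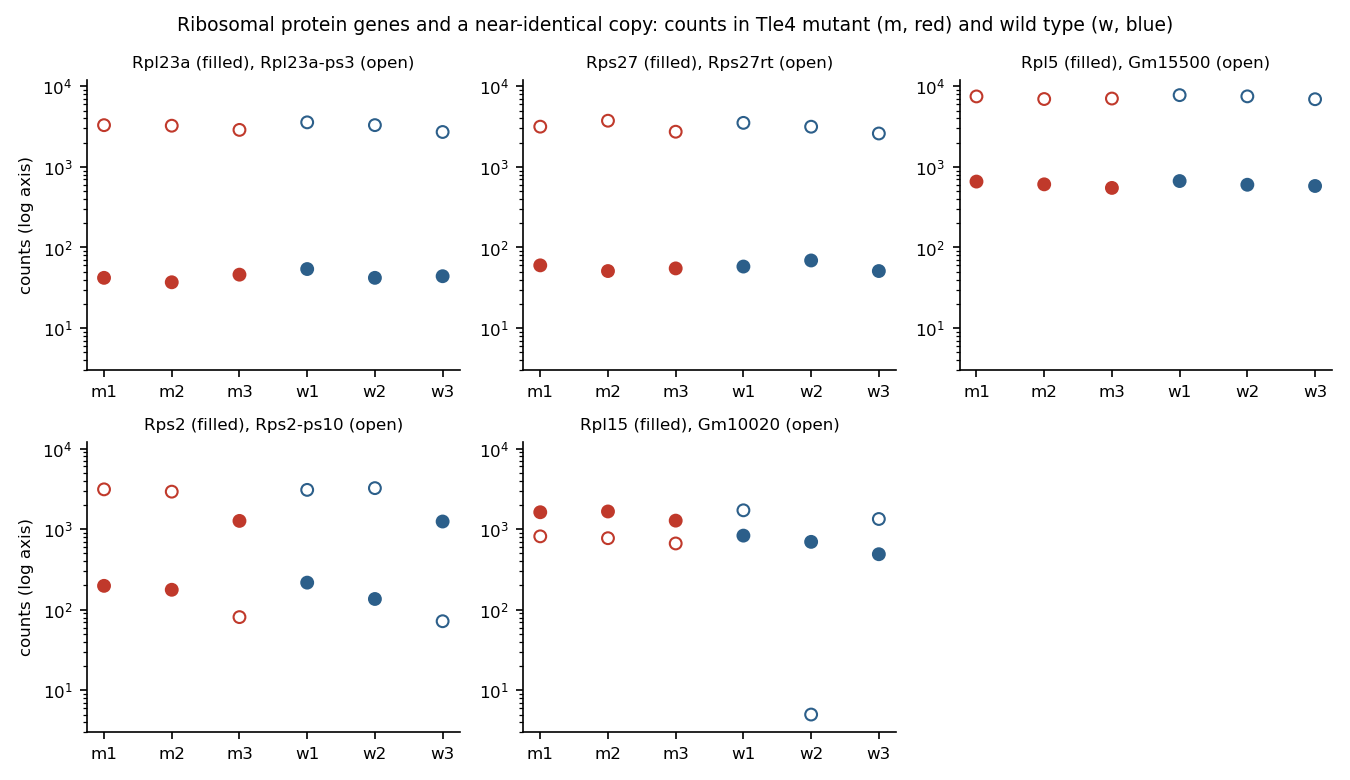
Counts on a log axis in the 3 Tle4 mutants (m1 to m3, red) and 3 wild types (w1 to w3, blue) for 5 ribosomal protein genes (filled) and a near-identical copy of each (open). The copies of Rpl23a, Rps27 and Rpl5 lie above the genes in all 6 libraries, Rps2 and Rps2-ps10 change places in m3 and w3, and Gm10020 drops to 5 counts in w2.

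Among the steady genes the smallest p-values for a higher level belonged to Rps15a, Rps24 and Rps19. Rps15a, a small-subunit protein, had 315, 314 and 348 CPM in mutants 1, 2 and 3, and 267, 214 and 225 CPM in wild types 1, 2 and 3. The genotypes did not overlap, and the log2 fold change was 0.47 (SE 0.11, unadjusted p = 0.00146, edgeR adjusted p = 0.423). Rps24, mutated in some patients with Diamond-Blackfan anaemia, had 230, 265 and 238 CPM in the mutants and 185, 223 and 172 CPM in the wild types. These did not overlap either (log2 fold change 0.34, SE 0.12, unadjusted p = 0.0157, edgeR adjusted p = 1). Rps19, the gene most often mutated in the same anaemia, had 105, 118 and 161 CPM in the mutants and 123, 105 and 110 CPM in the wild types, so mutant 3 alone was high (log2 fold change 0.19, SE 0.16, edgeR adjusted p = 1).

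For a lower level, the 3 smallest p-values among the steady genes included those of Rpl35a and Rps10. Rpl35a had 5.57, 5.55 and 6.83 CPM in the mutants and 8.86, 7.41 and 6.13 CPM in the wild types (log2 fold change -0.32, SE 0.22, unadjusted p = 0.169, edgeR adjusted p = 1). Rps10 had 17.9, 17.3 and 19.9 CPM in the mutants and 20.3, 18.4 and 23.1 CPM in the wild types (log2 fold change -0.16, SE 0.15, unadjusted p = 0.298, edgeR adjusted p = 1). In both genes the genotypes overlapped.

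The stalk proteins Rplp0, Rplp1 and Rplp2, which carry the docking site for elongation factors, were steady. Rplp0 averaged 599 ± 28.2 CPM in the mutants and 635 ± 57.1 CPM in the wild types. Rplp1 averaged 333 ± 12.2 CPM in the mutants and 320 ± 26.8 CPM in the wild types. Rplp2 averaged 120 ± 5.96 CPM in the mutants and 115 ± 11.4 CPM in the wild types (SD, n = 3 each throughout). Wdr89, which holds the Rplp2 coding sequence within a longer transcript, averaged 1976 counts.

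The 4 X-linked genes were steady too, in libraries whose sex differed with genotype. Rps4x, whose human counterpart escapes X inactivation, averaged 416 ± 27.3 CPM in the mutants and 418 ± 28.2 CPM in the wild types. Rpl39, at the wall of the exit tunnel, averaged 92.8 ± 11.6 CPM in the mutants and 92.3 ± 9.56 CPM in the wild types. Rpl10, among the last proteins to join the large subunit, averaged 62.1 ± 5.62 CPM in the mutants and 67.2 ± 5.68 CPM in the wild types. Rpl36a averaged 9.14 ± 2.70 CPM in the mutants and 9.14 ± 0.597 CPM in the wild types (SD, n = 3 each throughout). The log2 fold changes of the 4 ran between -0.11 and 0.0069, with an edgeR adjusted p of 1 for each.

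Rps6, the small-subunit protein phosphorylated after growth signals, had 96, 72 and 95 counts in the mutants and 48, 82 and 63 in the wild types. In CPM the genotypes did not overlap, at 4.49, 3.77 and 4.95 in the mutants and 2.44, 3.68 and 3.39 in the wild types, and the log2 fold change did not pass (0.47, SE 0.25, unadjusted p = 0.0951, edgeR adjusted p = 1). Rpl38, known in mouse for patterning of the axial skeleton, averaged 23.3 ± 5.94 CPM in the mutants and 24.8 ± 4.32 CPM in the wild types (SD, n = 3 each).

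Paralogues that resemble a ribosomal protein were set beside their parent gene by FPKM. Rpl22l1 averaged 4.82 ± 0.321 FPKM in the mutants and 4.39 ± 0.358 FPKM in the wild types, where Rpl22 averaged 28.0 ± 6.74 FPKM in the mutants and 27.6 ± 0.566 FPKM in the wild types (SD, n = 3 each). Rpl7l1 averaged 17.3 ± 2.06 FPKM in the mutants and 19.3 ± 2.48 FPKM in the wild types, where Rpl7 averaged 99.7 ± 2.02 FPKM in the mutants and 104 ± 6.78 FPKM in the wild types. Both paralogues stood below their parents in either genotype. Rps27l averaged 6.97 ± 1.58 FPKM in the mutants and 7.08 ± 0.523 FPKM in the wild types, above Rps27, which averaged 0.957 ± 0.0318 FPKM in the mutants and 1.02 ± 0.0791 FPKM in the wild types, with the counts of Rps27rt left out. Rps4l averaged 6.93 ± 1.05 FPKM in the mutants and 6.14 ± 2.08 FPKM in the wild types. It stood below Rps4x, which averaged 192 ± 12.9 FPKM in the mutants and 194 ± 9.13 FPKM in the wild types. For Rps4l no complete coding sequence was found in GENCODE M21. No paralogue tested passed the threshold, with an edgeR adjusted p of 1 for each of the 4.

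Ribosomal protein genes took 0.973, 1.09 and 1.04% of all counts in mutants 1, 2 and 3, and 1.05, 0.944 and 1.0% in wild types 1, 2 and 3. The genotypes overlapped, and mutant 2 held the largest share. The mean share was 1.03% ± 0.0565 in the mutants and 0.999% ± 0.0546 in the wild types (SD, n = 3 each), a difference of 0.0329 percentage points (exact 2-sided permutation test, p = 0.5, where 3 against 3 cannot go below 0.1). With the copies that have rows of their own added, the mean share was 1.30% ± 0.0733 in the mutants and 1.27% ± 0.0725 in the wild types (exact permutation p = 0.6).

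Other genes of translation gave no calls in edgeR's test. The lists held 9 elongation factors, 33 initiation factors, 46 genes of ribosome assembly, 77 proteins of the mitochondrial ribosome, 4 further parts of the cytosolic ribosome and 11 rows named as ribosomal protein pseudogenes, with 0 called in each. limma-voom called 0 in each list as well, and the DESeq2 Wald test called 1, Eif2s3x. At an unadjusted p under 0.05 there was 1 initiation factor, 1 assembly factor, 1 mitochondrial protein and 0 in the other lists. The initiation factor was X-linked Eif2s3x, which averaged 157 ± 6.50 CPM in the mutants and 104 ± 9.22 CPM in the wild types (log2 fold change 0.60, SE 0.10, edgeR adjusted p = 0.104). Nmd3, the export adaptor of the large subunit, averaged 29.1 ± 1.91 CPM in the mutants and 35.3 ± 1.60 CPM in the wild types (log2 fold change -0.28, SE 0.12, edgeR adjusted p = 1). Mrps25, of the mitochondrial small subunit, averaged 72.0 ± 4.50 CPM in the mutants and 54.5 ± 8.36 CPM in the wild types (log2 fold change 0.40, SE 0.13, edgeR adjusted p = 1). Medians of the lists lay between -0.083 for ribosome assembly and 0.012 for the mitochondrial ribosome, beside -0.0055 over all genes.

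Transcription of ribosomal protein genes is known to start within a run of pyrimidines, and the messenger RNA then opens with the tract through which mTOR signalling governs its translation. RefSeq promoters on GRCm38.p6, from 250 bases before the start to 50 after it, matched 62 of the 83 genes. Within 20 bases on either side of the start, CTTTC on the strand of the gene was found in 19 of the 62, or 30.6%, against 6.44% of all 27025 genes with a promoter. In the whole window, CCGGAAG on either strand was found in 41.9% against 9.93%, CTCTTTCC on either strand in 16.1% against 3.57%, GATGGCGG on either strand in 4.84% against 1.97%, and GGGCGG on either strand in 61.3% against 38.2%. TATAAA on the strand of the gene was found in 9.68% against 9.77%. These 6 motifs, chosen after other spellings had been counted, were compared without a test, and CTTTC and CTCTTTCC can overlap. CTTTC ahead of the start was counted too, and pyrimidine runs of another spelling were not. The windows of 5 genes follow, with CTTTC in capitals and the start at base 21. They cover chr11:114668560-114668599 (plus strand) for Rpl38, chr7:4792945-4792984 (plus) for Rpl28, chr14:18270967-18271006 (minus) for Rpl15, chr2:39005112-39005151 (minus) for Rpl35 and chr3:90213629-90213668 (minus) for Rps27.
Rpl38: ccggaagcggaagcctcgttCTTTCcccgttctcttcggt
Rpl28: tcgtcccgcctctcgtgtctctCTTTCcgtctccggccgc
Rpl15: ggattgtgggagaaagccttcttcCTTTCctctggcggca
Rpl35: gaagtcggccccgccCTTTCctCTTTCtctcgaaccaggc
Rps27: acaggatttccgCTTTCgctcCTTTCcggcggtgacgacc
CTTTC near the start was found in 16 of the 50 steady genes with a promoter. It was found in 2 of the 8 variable ones and in 0 of the 2 switching ones, numbers too small to compare.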

How the data were processed

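The table deposited by the authors holds counts, whole numbers for each gene in each library, used as they stand. It also gives FPKM values per library, deposited by the authors and used for levels per length and in an alternative switching rule. The authors' deposited p-values and adjusted p-values were only quoted. Per the submitters' processing notes, reads were handled with HISAT2 2.0.4, StringTie and edgeR, with GRCm38.p4 and mm10 as builds. Neither the counting program nor its use of strand nor its rule for reads that match several places is stated in those notes. Library totals ran from 18617408 to 21632607 counts, so precision is poorest for rows with few counts. The limit that a count of 0 allows covers counting error only, while SDs and SEs include the spread between libraries.

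Counts were fitted over the whole table with edgeR 4.0.16 in R 4.3.3: filterByExpr, TMM factors, a robust quasi-likelihood fit of mutant against wild type, a 2-sided test, and Benjamini-Hochberg adjustment over all genes tested, with a threshold of 0.05. Standard errors (SE) divide the size of a log2 fold change by the root of its F value. CPM is scaled by TMM factors. The ratio of highest to lowest library sets the lowest at 3 counts at least. Copies were found with BLAST 2.17.0 among GENCODE M21 transcripts, leaving out places within 20000 bases of the gene. The share of counts was compared by an exact permutation test in scipy 1.17.1. The steps were tested on simulated data.

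The members, lists and alternatives were chosen with earlier results of these data known. Genes named are the switching genes, Rpl26 and Rpl29, the 5 steady genes highest and 3 genes lowest in FPKM, the 3 steady genes of smallest p in each direction, X-linked genes, stalk genes, paralogues with their parents, a few of known role, and up to 4 of smallest p per other list. A few genes picked this way are not reported here. The variable genes and the copies were chosen after their values were seen. Alternatives were DESeq2 1.42.0 size factors and Wald test, limma-voom (limma 3.58.1), other filters, a replicate block, each library left out, and fits without X and Y rows or without the 67 rows that pass the switching rule. Sums with copies were added after seeing the data.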

Additional observations from a re-analysis of the deposited data

How the results depend on the processing

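The count of ribosomal protein genes past the threshold stayed at 0 with DESeq2 size factors, limma-voom, a filter at a mean of 1 CPM, the replicate block, no X or Y rows, no rows on and off, and copies added. It was 2 in the DESeq2 Wald test and 1 with no filter beyond 1 count, and between 0 and 1 with 1 library left out. Over all genes the count was 58 in the DESeq2 Wald test, 9 with the replicate block and 11 without rows on and off, against 18, and 8 to 19 with 1 library left out. The replicate numbers did not pair the libraries (correlations of -0.0627, 0.1 and -0.0185 for numbers 1, 2 and 3), not every library correlated best with its own number, and the block gave 0 calls among ribosomal protein genes. The median log2 fold change of the genes tested ran from -0.0607 to 0.0499 with 1 library left out, and that of the steady genes from -0.0681 to 0.0414. Of the 67 steady genes, 57 kept their sign in all 9 other fits and 17 with each library left out, so the sign of single steady genes is not settled. The number of switching genes ran from 2 to 3 with 1 library left out, was 4 at a ratio of 10, where Rps2 joined, and was 3 at a ratio of 100, at 1 or 50 CPM and with FPKM. The share of counts differed by 0.00548 to 0.0625 percentage points with 1 library left out, and by -0.00597 with steady genes only, turning its direction.

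Rps2 turned to -0.0019 in the DESeq2 Wald test and to -0.0054 with its copies in the table added. It ran from -1.59 to 1.72 with 1 library left out. The same range was -6.37 to 0.0048 for Rpl29, -0.127 to 0.752 for Rps13, and -0.157 to 0.369 for Rps23. For Rps19 it was -0.0104 to 0.311. The ends of the Rps2 range came with its high libraries left out, -1.59 without mutant 3 and 1.72 without wild type 3. For Rpl29 the 0.0048 came without wild type 3, its only high library. Why single libraries were high was not tested. At these depths a row with as few counts as Rpl11 or Rps27 gives only a coarse fold change.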
